A study of Mus musculus with 43 samples.

Results

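H3R2me2a and H3K4me3 were compared in testis cells of WT C57BL/6J mice at postnatal day 14 (P14), with 2 CUT&Tag peak lists for each mark. The lists were chosen by mark, genotype and age, and they are 4 of the 43 samples of the series and 4 of its 33 peak lists. CUT&Tag tethers a transposase to an antibody bound in intact nuclei, so that DNA beside the antibody is tagged and sequenced, and a peak is a stretch where tags exceed the local background. The study follows the arginine methyltransferase Prmt1 and related enzymes through male germ cell development, and it profiled H3K4me3 next to the arginine marks as a label of promoters. The cells came from tubules digested with collagenase and trypsin and passed through a fine strainer meant to hold back Sertoli cells, with no sort described. The labels name the antibody as the treatment, and they speak of tamoxifen on 3 days for the study's WT and knockout mice in general without saying whether these C57BL/6J mice received it. The titles name spermatogonia while a second label and the study's methods name spermatocytes, so the samples are called P14 testis cells below. The paper says in general that its experiments had at least 3 biological replicates unless stated. For the 2 lists of a mark the sources used here do not say whether they came from separate mice, so the spread between them may be technical.

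H3R2me2a is the asymmetric dimethylation of arginine 2 on histone H3, and Prmt6 is its main known writer. H3K4me3, the trimethylation of the nearby lysine 4, is written by complexes of the MLL and SET1 enzymes around Wdr5 and sits at active promoters, most of all at those rich in CpG dinucleotides. In other cells each of these marks is known to hinder the writing or reading of the other, which makes their places relative to each other a question of its own. Germ cells also use Prdm9, an H3K4 methyltransferase of meiotic prophase.

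The H3R2me2a lists held 47975 and 55908 peaks and the H3K4me3 lists 25627 and 26635. H3R2me2a peaks were narrow, with median widths of 310 and 312 bp against 689 and 726 bp for H3K4me3, so that the 4 lists covered a like amount of the genome, 17.9 and 21.02 Mb for H3R2me2a and 19.5 and 21.01 Mb for H3K4me3. Fold enrichment over the local background had a median of 2.92 and 2.86 in the H3R2me2a lists and of 4.95 and 5.27 in the H3K4me3 lists. The lists also rest on different thresholds, since peak names carry p 0.005 for H3R2me2a and q 0.05 for H3K4me3, and 32.0% and 34.9% of the H3R2me2a peaks reached q 0.01 against 98.95% and 99.2% of the H3K4me3 peaks. Read numbers behind the lists are unknown, and a place without a peak is therefore a place where none was listed, not one shown to lack the mark.

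Of the H3R2me2a peaks, 43.7% and 41.3% had their summit in a promoter, taken as 3000 bp on either side of any annotated transcript start, against 69.2% and 68.5% of the H3K4me3 peaks. The groups did not overlap and differed by -26.4 percentage points, with an exact permutation p of 0.333, the smallest that 2 lists against 2 can give in a two-sided test. The size of the difference went with the lists' thresholds and lengths, at -11.7 points with q 0.01 in all 4 lists, -19.5 with H3R2me2a at q 0.05 and -17.6 with lists of equal length. Promoter windows made up 15.1% of the genome. The remaining H3R2me2a peaks lay in introns (27.5% and 28.6%), between genes (24.9% and 26.2%) and in exons (3.93% and 3.97%). CpG content parted the marks as well. In the 150 bp on either side of a summit the median was 1.67 CpG per 100 bp in both H3R2me2a lists and 5.33 in both H3K4me3 lists, and the genome held 0.826.

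As listed, H3K4me3 peaks held the other mark more often than H3R2me2a peaks did, an order that rests on where the lists end. An H3K4me3 peak overlapped 29.6%, 29.98%, 26.7% and 27.1% of the H3R2me2a peaks in the 4 pairs of lists, a mean of 28.4% ± 1.67 (SD over 4 pairs, which share lists). In the other direction 50.1%, 48.4%, 53.0% and 51.4% of the H3K4me3 peaks held an H3R2me2a peak, a mean of 50.7% ± 1.96. With only peaks at q 0.01 or less in all 4 lists the means were 52.7% of H3R2me2a and 33.6% of H3K4me3 peaks, and with every list cut to the length of the shortest they were 43.02% and 40.2%. Both shares were higher in promoters. Among promoter peaks 55.8% ± 1.63 of H3R2me2a and 60.4% ± 2.08 of H3K4me3 overlapped the other mark, while outside promoters the shares were 8.07% ± 0.646 and 29.3% ± 1.86. H3R2me2a peaks in introns met H3K4me3 least, at 5.93% ± 0.565.

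These shares are read against how well a mark repeats itself. The H3R2me2a lists overlapped each other in 44.6% and 38.2% of their peaks, and in 59.0% and 53.5% of those in promoters. In promoters, H3R2me2a thus met H3K4me3 about as often as it met its own replicate. The H3K4me3 lists repeated 85.2% and 80.8% of their peaks, far above their overlap with H3R2me2a. At P7, the same pair of marks in 2 lists each overlapped less, with 18.03% ± 1.93 of H3R2me2a peaks and 18.4% ± 0.667 of H3K4me3 peaks, and there the H3R2me2a lists repeated 16.6% ± 1.18 of their own peaks. The P7 H3R2me2a lists were shorter and weaker (18821 and 20891 peaks, of which 9.01% and 6.86% reached q 0.01), and the part of this in the difference between the ages was not tested.

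**Figure D1:**
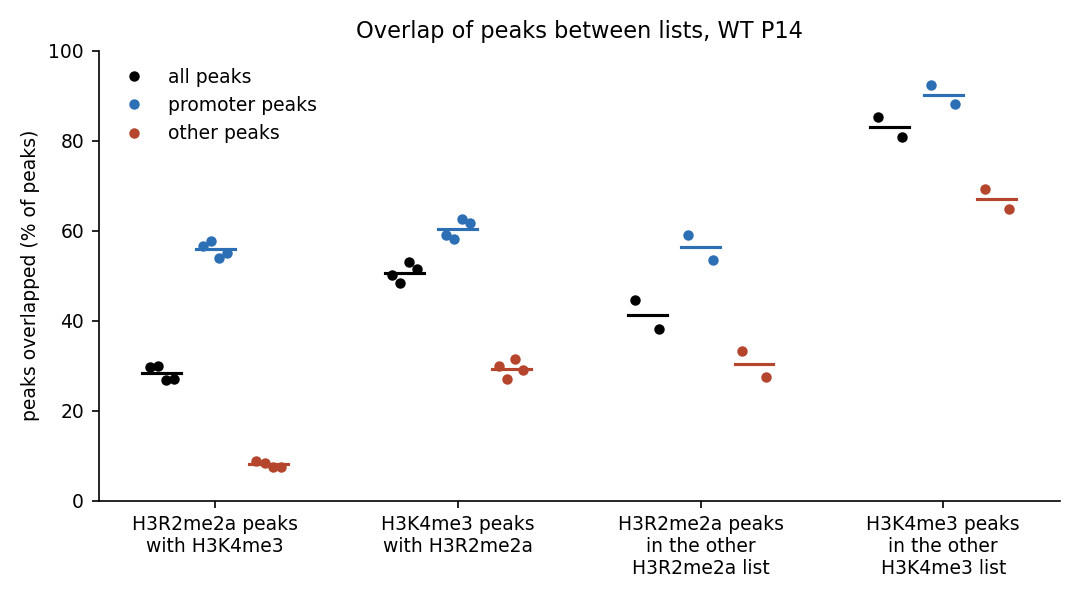
Share of peaks (%) overlapped by at least 1 bp in another P14 list, for all peaks, promoter peaks and other peaks, where each point is a pair of lists and each line the mean of its points. Promoter peaks of H3R2me2a meet H3K4me3 in 54.0% to 57.8% of cases, near the 53.5% to 59.0% between the H3R2me2a lists, and other peaks in 7.49% to 8.79%.

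Other marks of the same cells give a scale for the overlap. With every list cut to its 25627 strongest peaks, H3K4me3 overlapped 43.0% ± 0.261 of the H3R2me2a peaks (4 pairs). The value was 50.3% ± 1.26 for H3K27ac, an acetylation of active promoters and enhancers. It was 36.4% ± 1.58 for H3R8me2a, 34.0% ± 2.43 for H4R3me2a and 32.8% ± 0.470 for H4R3me1. At this length H3R2me2a had the highest value of these 4 arginine marks, below that of H3K27ac, but the order did not hold in the full lists. There the share was 28.4% for H3R2me2a, between H3R8me2a (32.3%) and H4R3me1 (29.8%) above it and H4R3me2a (25.5%) below it, and among promoter peaks H3R2me2a had the lowest share (55.8% against 56.4% to 62.95%). With lists of equal length 51.8% of the H3R2me2a peaks lay in promoters, against 57.4% for H3K27ac and 43.2% to 46.2% for the other arginine marks, and the part of that difference in the overlap was not tested.

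Overlap followed peak strength. When H3R2me2a peaks were ranked by −log10 p and split into 5 groups of equal size, H3K4me3 overlapped 10.04% of the weakest and 65.2% of the strongest, with 14.3%, 20.8% and 31.5% between them. Promoter peaks went from 25.8% to 85.2% and other peaks from 3.20% to 28.9%. H3K4me3 peaks went from 30.6% in the weakest to 89.02% in the strongest group, and those in promoters from 32.7% to 89.3%. Most of the strongest promoter peaks of either mark thus overlapped the other. Outside promoters the H3K4me3 peaks stayed between 25.2% and 34.3% over the first 4 groups and reached 79.3% in the last.

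**Figure D2:**
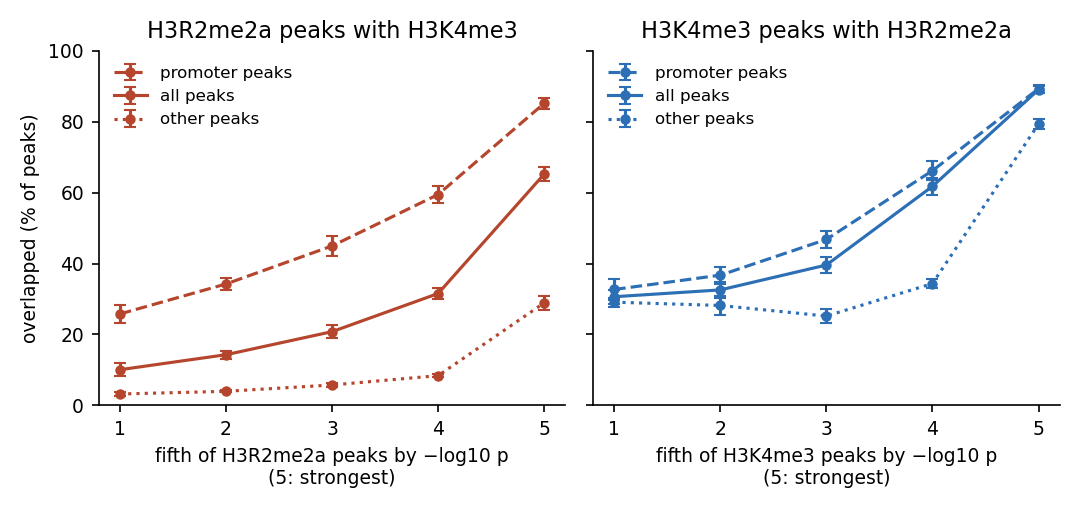
Share of peaks (%) overlapped by the other mark, for H3R2me2a peaks (left) and H3K4me3 peaks (right) in 5 equal groups by −log10 p, as the mean over 4 pairs of lists with bars of 1 SD. All curves for H3R2me2a rise from group 1 to group 5, and H3K4me3 peaks outside promoters rise mainly in group 5, from 34.3% to 79.3%.

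Summits of overlapping peaks lay close together. The distance between them had a median of 113 to 116 bp when counted from the H3R2me2a peaks and of 93 to 96 bp when counted from the H3K4me3 peaks, and 56.3% to 57.4% of overlapping H3R2me2a peaks had their summit within 150 bp of the other. The like medians between replicate lists were 109 bp for H3R2me2a and 66 bp for H3K4me3. Among overlapping peaks the median distance of an H3R2me2a summit was thus about the same to H3K4me3 as to its own replicate, but the spread was wider, with 12.2% of the H3K4me3 summits over 500 bp away against 4.04% between the replicates. Over all peaks the distances were unequal in the 2 directions. From an H3R2me2a summit to the nearest H3K4me3 summit the median was 9772, 9263, 11735.5 and 11069 bp in the 4 pairs, a mean of 10459.9 ± 1141 bp. From an H3K4me3 summit to the nearest H3R2me2a summit it was 600, 729, 465.5 and 533 bp, a mean of 582 ± 112 bp. This order did not hold with other lists, since the means were 4313 and 4702 bp with lists of equal length and 693 and 11549 bp at q 0.01 in all 4 lists.

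Both marks gathered just downstream of the transcript start. Of 8766 protein-coding genes with no other start within 6000 bp, the H3R2me2a summits had a median position of 167 and 172 bp downstream and the H3K4me3 summits of 198 and 197 bp. The most filled bin of 100 bp ran from 100 to 200 bp downstream in all 4 lists. H3K4me3 was the tighter and the more one-sided of the marks. Of its summits 80.6% and 81.9% lay within 500 bp of the start and 83.3% and 83.7% downstream of it, against 64.5% and 63.8%, and 70.3% and 70.8%, for H3R2me2a. In both marks a lower shoulder lay upstream, in front of the start.

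**Figure D3:**
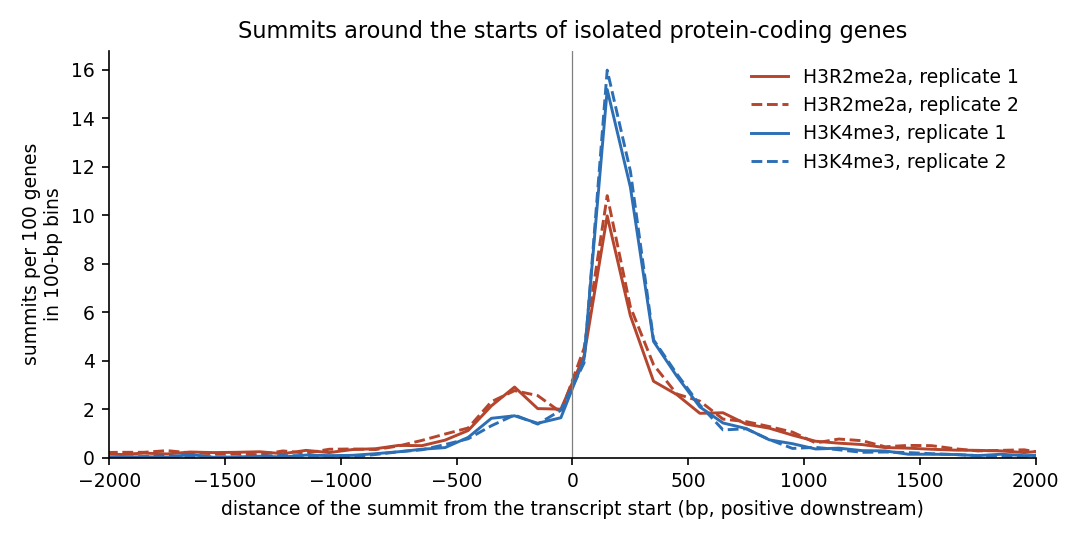
Summits per 100 genes in bins of 100 bp around the starts of 8766 isolated protein-coding genes, with distance in bp on the x axis (positive downstream) and a line for each of the 4 P14 lists. All lines peak between 100 and 200 bp downstream, and the H3R2me2a lines have the higher upstream shoulder and the heavier tails.

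A gene was counted as carrying a mark when both lists of the mark held a summit within 3000 bp of any of its starts. Of 55450 annotated genes, 12827 carried both marks (23.1%), 1992 carried H3R2me2a with H3K4me3 in no list (3.59%) and 2094 carried H3K4me3 with H3R2me2a in no list (3.78%). Among 21951 protein-coding genes these classes held 10124 (46.1%), 736 (3.35%) and 1291 (5.88%). A further 3340 genes carried H3K4me3 with H3R2me2a in 1 list, and 764 carried H3R2me2a with H3K4me3 in 1 list. Read by mark, 82.3% of the 15583 genes with H3R2me2a also carried H3K4me3, and 70.2% of the 18261 genes with H3K4me3 also carried H3R2me2a. The counts of genes with a single mark depended on the peak lists. Without H3R2me2a replicate 1 or 2, so that 1 list decided, 4588 or 3803 genes had H3R2me2a only and 3490 or 4038 had H3K4me3 only, and at q 0.01 in all 4 lists 281 had H3R2me2a only, 5732 had H3K4me3 only and 7573 had both. Genes that share a start region share its peaks, so they are not independent.

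Genes with both marks usually had them at the same place. The best peaks of the 2 marks overlapped in 81.8% to 82.3% of the 12827 genes, with summits 151 to 159 bp apart in the median, while in 15.8% to 16.2% they lay over 1000 bp apart. Between the H3R2me2a lists the best peaks of these genes lay 166 bp apart and overlapped in 74.3%.

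The classes differed in sequence, in other marks and in RNA. Protein-coding genes with both marks had a median of 6.50 CpG per 100 bp around their main start, those with H3K4me3 only 4.4, those with H3R2me2a only 1.60 and those with neither 0.600. H3K27ac stood in both of its lists at 80.05%, 57.6%, 12.2% and 1.31% of these genes in the same order. Median TPM in 3 bulk RNA-seq libraries of WT testis was 23.8, 24.4 and 22.5 for both marks, 13.3, 13.5 and 12.9 for H3K4me3 only, and 0.250, 0.245 and 0.210 for H3R2me2a only. These libraries are from P7 mice given tamoxifen, so they describe the genes at another age. H3R2me2a without H3K4me3 thus lay at CpG-poor, mostly silent genes. Its 1992 genes held more lincRNA genes (13.8% against 3.64%) and pseudogenes (18.9% against 2.89%) than genes with both marks. Among all annotated genes with neither mark the shares were 13.3% and 38.1%.

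Each mark was also weaker where it stood alone. H3K4me3 peaks of protein-coding genes with that mark only had a median width of 750 and 811 bp and a −log10 p of 15 and 17.8, against 1105 and 1152 bp and 28.4 and 32.8 beside H3R2me2a. H3R2me2a peaks standing alone had a −log10 p of 4.56 and 4.65 against 6.37 and 6.57, and their summits lay 776 and 753 bp from the nearest start against 192 and 188 bp. Many of the H3R2me2a-only calls are thus peaks inside the promoter window but away from the start, and with a window of 1000 bp in place of 3000 bp 977 of all annotated genes had H3R2me2a only, down from 1992.

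Promoter sequences show the contrast in CpG. The stretches below are the 200 bases before a RefSeq transcript start (GRCm38.p6, read 5′ to 3′ on the gene's strand), with each CG dinucleotide in capitals, and none of them overlaps an annotated exon. Dennd6a, Pdcd2l and 4931408C20Rik are among the highest ranked genes of their class, and the others were chosen from the gene lists after their values were seen. Dennd6a (chr14:26579350-26579549, plus strand), Prdm9 (chr17:15564355-15564554, minus strand) and Sycp1, a transverse filament protein of the synaptonemal complex (chr3:102936101-102936300, minus strand), carried both marks and hold 14, 10 and 16 CG. Pdcd2l (chr7:34196671-34196870, minus strand) and Rnf212, a crossover factor (chr5:108775028-108775227, minus strand), carried H3K4me3 only and hold 12 and 15. 4931408C20Rik (chr1:26687461-26687660, minus strand), the sperm glycolytic gene Gapdhs (chr7:30743682-30743881, minus strand) and Neurog3, a transcription factor of progenitor spermatogonia (chr10:62132890-62133089, plus strand), carried H3R2me2a only and hold 0, 1 and 14.
Dennd6a: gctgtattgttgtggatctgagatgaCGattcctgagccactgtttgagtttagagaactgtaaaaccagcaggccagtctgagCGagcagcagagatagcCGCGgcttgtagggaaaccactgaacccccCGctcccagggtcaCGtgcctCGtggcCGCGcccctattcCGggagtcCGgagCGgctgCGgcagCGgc
Prdm9: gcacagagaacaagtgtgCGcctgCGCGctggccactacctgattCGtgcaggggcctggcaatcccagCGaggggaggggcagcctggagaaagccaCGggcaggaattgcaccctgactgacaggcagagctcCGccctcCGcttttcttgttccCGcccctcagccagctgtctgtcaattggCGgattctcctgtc
Sycp1: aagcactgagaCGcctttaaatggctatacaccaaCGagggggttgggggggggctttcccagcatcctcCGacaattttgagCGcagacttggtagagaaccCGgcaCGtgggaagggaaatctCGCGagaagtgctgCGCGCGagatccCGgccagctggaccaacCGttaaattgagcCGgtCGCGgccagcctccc
Pdcd2l: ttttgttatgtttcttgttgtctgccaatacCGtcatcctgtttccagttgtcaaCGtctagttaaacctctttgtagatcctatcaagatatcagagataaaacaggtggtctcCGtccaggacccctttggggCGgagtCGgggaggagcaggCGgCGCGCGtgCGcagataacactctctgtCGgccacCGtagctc
Rnf212: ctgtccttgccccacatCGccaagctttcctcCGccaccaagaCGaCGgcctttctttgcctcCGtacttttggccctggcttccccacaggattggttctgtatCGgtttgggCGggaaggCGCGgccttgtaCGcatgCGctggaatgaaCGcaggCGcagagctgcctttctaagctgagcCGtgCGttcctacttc
4931408C20Rik: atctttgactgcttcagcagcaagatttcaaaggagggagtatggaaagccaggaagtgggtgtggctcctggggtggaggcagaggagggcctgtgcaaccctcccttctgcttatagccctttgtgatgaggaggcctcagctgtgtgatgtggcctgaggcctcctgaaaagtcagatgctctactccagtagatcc
Gapdhs: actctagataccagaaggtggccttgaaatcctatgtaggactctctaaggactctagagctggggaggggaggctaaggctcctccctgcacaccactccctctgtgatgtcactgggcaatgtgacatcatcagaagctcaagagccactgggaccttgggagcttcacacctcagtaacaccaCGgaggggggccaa
Neurog3: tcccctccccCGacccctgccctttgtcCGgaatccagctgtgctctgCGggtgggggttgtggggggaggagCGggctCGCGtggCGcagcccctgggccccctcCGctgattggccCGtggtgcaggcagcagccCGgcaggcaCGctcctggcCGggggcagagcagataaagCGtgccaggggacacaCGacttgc

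Neurog3 shows that CpG alone did not sort the classes, since its promoter is as rich in CG as those of genes with H3K4me3. Over all protein-coding genes, the 300 bases from 250 before to 50 after the main start held a median of 21 CG with both marks, 14 with H3K4me3 only, 5 with H3R2me2a only and 2 with neither, and at least 10 CG were found in 82.2%, 66.6%, 16.7% and 3.29% (53.9% of all protein-coding genes). The letters TATAAA, searched on both strands, stood in 6.82%, 9.22%, 14.9% and 26.1% (12.6% of all). GGGCGG, which itself holds a CG, stood in 63.5%, 49.3%, 23.8% and 6.51% (43.4% of all), and CCAAT in 38.4%, 41.1%, 33.0% and 42.0% (38.7% of all). TATAAA thus ran against the CG count while CCAAT varied little.

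The genes that rank first by peak strength in both marks include 4 that lie at positions very strong in all 4 lists, Gm10800, Zc3h7a, Gm21738 and Gm10722. There are 39 positions with a −log10 p of at least 50 in all 4 lists, and 12 of them do so in all 13 P14 lists of WT cells used here, so they say little about either mark. Ppp2r5c, a regulatory subunit of the phosphatase PP2A, and Dennd6a, an exchange factor of membrane transport, come next. For Dennd6a the fold enrichment was 5.82 and 6.02 in the H3R2me2a lists and 10.8 and 11.01 in the H3K4me3 lists, with summits 102 to 152 bp from a start in all 4. Fold enrichments are ratios within a list and are not compared between marks.

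The first genes with H3K4me3 only are Pdcd2l, Gm17324, the zinc finger gene Zfp871, Snrpb2 and Lsm5, which encode proteins of splicing RNPs, and Ppp4c, a phosphatase catalytic subunit. Pdcd2l had H3K4me3 at a fold enrichment of 9.43 and 9.75 and Lsm5 at 10.7 and 10.5, and neither had an H3R2me2a summit in any list. H3K27ac was in both lists at all 6. The first genes with H3R2me2a only are Gm47995, Slc7a11, BB014433, 4931408C20Rik, Pcdha5 and Ache. H3K27ac was in both lists at Gm47995 and 4931408C20Rik, in 1 at Slc7a11 and in none at BB014433, Pcdha5 and Ache. At P7, H3K4me3 was in both lists at Gm47995 and in 1 at Slc7a11. Slc7a11, the cystine transporter, had H3R2me2a at 4.51 and 4.88, and Ache, the acetylcholinesterase, at 2.97 and 3.11. The Slc7a11 summits lay 73214 and 73191 bp downstream of its main start, and 399 and 376 bp from the nearest annotated one. The Ache peaks of the 2 lists did not overlap each other, with summits 1854 and 844 bp downstream of its main start. The TPM of these 6 genes lay between 0 and 0.63 in the 3 bulk libraries, so none was well expressed at P7.

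Genes of the enzymes themselves mostly carried both marks. Here and below, 46.1% is the share with both marks over all protein-coding genes, with or without H3K4me3. Of the 13853 with H3K4me3, 10124 carried both (74.95% on autosomes). All 9 arginine methyltransferase genes did (9 of 9, against 46.1% of protein-coding genes), a count that needs the window of 3000 bp, since the best H3R2me2a summits of Prmt8 lay 1681 and 1630 bp from the nearest start and that of Prmt3 1083 bp in the second list. Prmt6, the writer of H3R2me2a, had an H3R2me2a fold enrichment of 3.72 and 3.90 and an H3K4me3 fold enrichment of 7.203 and 7.90, and Prmt1, the main enzyme of asymmetric dimethylation, had 3.13 and 3.65 and 6.13 and 6.20. Prmt8, which is known from brain, was the weakest in H3K4me3 (4.27 and 5.12) and stood at 0.170, 0.390 and 0.0800 TPM. Of 19 genes of H3K4 methyltransferase complexes 16 carried both marks, among them Wdr5, the core subunit, at 3.06 and 3.03 for H3R2me2a and 5.69 and 6.07 for H3K4me3. Men1, the menin subunit, carried H3K4me3 only, and Rbbp5 and Kdm6a had H3R2me2a in 1 list. Prdm9 belongs to the same list and had H3R2me2a at 6.25 and 6.31, with H3K4me3 at 7.35 and 7.43. Among 6 H3K4 demethylase genes 4 carried both marks, Kdm5a had H3R2me2a in 1 list, and Kdm5d, on the Y chromosome, carried H3K4me3 only.

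Spermatogonial genes carried H3K4me3 in 24 of 29 cases (63.1% of all protein-coding genes did), and 1 of 29 had neither mark (24.6%). Both marks stood at 16 (55.2% against 46.1%), 2 or 6.90% against 5.88% carried H3K4me3 only (Ret, the GDNF receptor, and Zbtb16, which encodes Plzf), 1 H3R2me2a only (Neurog3), and 6 carried H3K4me3 with H3R2me2a in 1 list (11.1% of protein-coding genes). Among genes with H3K4me3, both marks thus stood at 16 of 24, against 10124 of 13853 protein-coding genes (74.95% on autosomes). Id4, a factor of the stem cell fraction, had both marks at 3.51 and 4.03 for H3R2me2a and 5.65 and 6.00 for H3K4me3. Etv5, another stem cell factor, had 3.50 and 3.54 and 6.89 and 6.59, Sohlh2, a factor of differentiation, 3.00 and 3.74 and 6.37 and 8.03, and Taf4b, a germ cell form of a TFIID subunit, 4.98 and 3.08 and 7.25 and 8.23. Lhx1 also counted as having both, but its H3R2me2a summits lay 1655 and 1736 bp from the nearest start and its H3K4me3 summits 120 and 277 bp. Zbtb16 had H3K4me3 at 5.75 and 5.14 and no H3R2me2a summit, with 24.8, 28.3 and 21.8 TPM in bulk testis at P7. Pou3f1 had H3R2me2a in 1 list, at 2.13, beside H3K4me3 at 3.70 and 3.89. Bcl6b held each mark in 1 list, Pou5f1 only H3R2me2a in 1 list, and Nanos2, which marks the most primitive spermatogonia, held neither.

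Meiotic prophase genes carried H3K4me3 in 42 of 44 cases (63.1% of all protein-coding genes did), and 28 carried both marks (63.6% against 46.1%). Among genes with H3K4me3 this was 28 of 42, against 10124 of 13853 protein-coding genes (74.95% on autosomes). Sycp1 had H3R2me2a at 4.25 and 3.66 and H3K4me3 at 9.49 and 8.80, Spo11, the nuclease that opens meiotic breaks, had 3.99 and 4.29 and 6.81 and 7.30, and Stra8, the gate of meiotic entry, had 2.46 and 2.60 and 5.90 and 6.87. In Stra8 the H3R2me2a summits lay 2497 and 1263 bp downstream of its main start and the H3K4me3 summits 1143 and 1242 bp, so that the marks lay together in the second H3R2me2a list and apart in the first. Hormad1, Ankrd31, Rnf212, Spata22 and Tex11 carried H3K4me3 only (11.4% against 5.88%), and 9 others carried it with H3R2me2a in 1 list (11.1% of protein-coding genes). Hormad1, an axis protein, had H3K4me3 at 6.93 and 7.88, below Sycp1. Ankrd31, a factor of break formation, had it at 9.47 and 11.2, as strong as Sycp1 in the first list and above it in the second. Of the list's 42 genes with H3K4me3, the mark was in both P7 lists for 31 and in no P7 list for 8. Among all 13853 protein-coding genes with H3K4me3 at P14 these numbers were 13022 and 443. H3R2me2a stood in both P14 lists at 25 of the 31 (74.5% of all such protein-coding genes) and at 2 of the 8, Spo11 and Msh4 (44.7%). Of the other 6, Rec8, Mei1, Msh5 and Majin held it in 1 list, and Spata22 and Tex11 in none.

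Of 36 postmeiotic genes, which serve sperm and spermatids, 19 had neither mark (24.6% of protein-coding genes), among them the protamines Prm1 and Prm2 and the acrosin gene Acr, and 11 had both (30.6% against 46.1%), such as the sperm tail gene Odf2 and the zona binding gene Zpbp2, whose H3R2me2a reached 5.14 and 5.43. Tnp2 and Gapdhs carried H3R2me2a only, each with 0 to 0.23 TPM in the bulk libraries. Against the 63.1% of all protein-coding genes with H3K4me3, the mark was at 12 of 15 somatic markers for Sertoli cells, with Sox9 and Wt1 among the 5 with both marks, at 1 of 9 for Leydig cells, 3 of 7 for peritubular myoid cells, 2 of 7 for endothelial cells and 0 of 10 for macrophages. Sertoli cell markers thus carried H3K4me3 in about the share of the spermatogonial genes (24 of 29), and macrophage markers did not carry it. How far Sertoli cells in the suspension contributed to any value was not tested here, and the paper's stated share of germ cells in the filtrate is for P7. H3R2me2a without H3K4me3 (3.35% of protein-coding genes) was found at 2 of the 10 macrophage genes, C1qa and Cx3cr1, and at 1 of the 9 Leydig genes, Cyp11a1, the first enzyme of Leydig steroid synthesis.

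Ribosomal protein genes and Hox genes are given without a test of their difference. All 76 cytosolic ribosomal protein genes carried H3K4me3 (63.1% of protein-coding genes did). H3R2me2a stood in both lists at 47 of them (61.8% with both marks, against 46.1%), in 1 list at 14 (11.1% of protein-coding genes) and in none at 15 (19.7% with H3K4me3 only, against 5.88%). The 46.1% is over genes with or without H3K4me3. Of the 13853 protein-coding genes with H3K4me3, 10124 carried both marks (74.95% on autosomes), so the ribosomal share lay below that of such genes. Of 39 Hox genes, the patterning factors that are silent in most adult cells, 21 carried both marks (53.8% against 46.1%) and 6 H3R2me2a only (Hoxa3, Hoxa6, Hoxa9, Hoxb6, Hoxb13 and Hoxc9, 15.4% against 3.35%), while H3K27ac was in both lists at 2. Over all protein-coding genes, H3K27ac was in both lists at 80.05% of those with both marks and 57.6% of those with H3K4me3 only. It was at 12.2% of those with H3R2me2a only and 1.31% of those with neither. Genes of a cluster can share peaks. Olfactory receptor genes served as a silent set, and 1037 of 1093 had neither mark (24.6% of protein-coding genes), with 3 in both (0.274% against 46.1%).

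**Figure D4:**
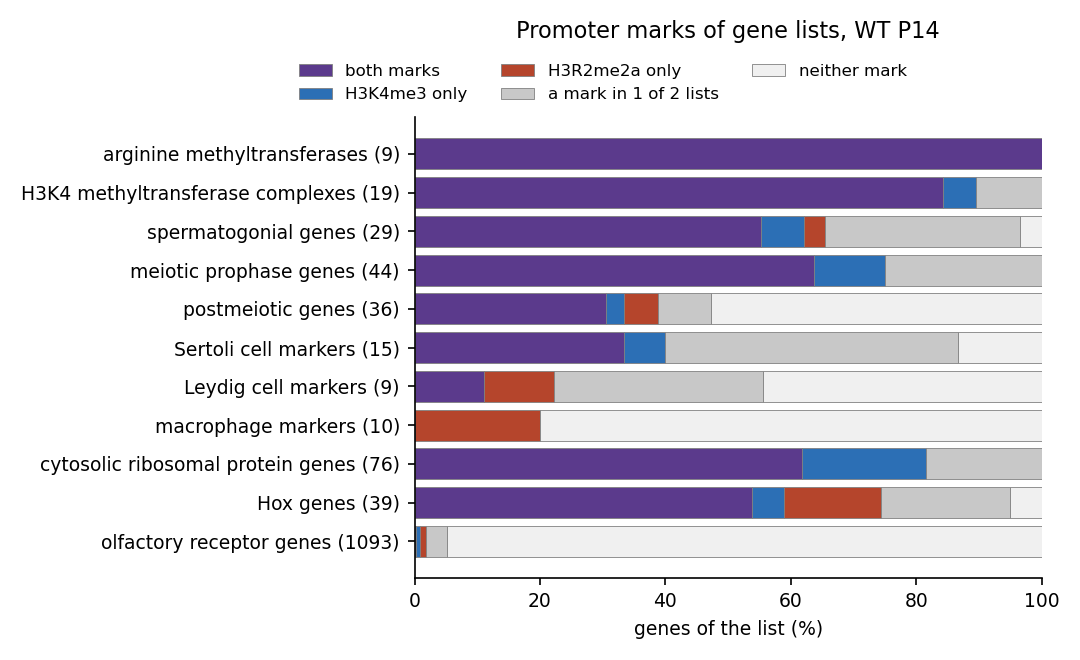
Share of the genes of each list (%, number of genes in brackets) by promoter class, where a gene counts for a mark when both of its lists hold a summit within 3000 bp of a start. All 9 arginine methyltransferase genes have both marks, 15 of 76 ribosomal protein genes have H3K4me3 only, and 6 of 39 Hox genes have H3R2me2a only.

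The P7 lists sorted the H3K4me3 peaks of P14. H3K4me3 promoter peaks that were also in both P7 lists (13783 and 13596 peaks) held H3R2me2a in 67.2% and 70.7% of cases in the first H3K4me3 list and in 68.0% and 71.5% in the second. Promoter peaks in no P7 list (1678 and 1642) held it in 24.4% and 27.5%, and in 25.5% and 27.9%. The 4 values of one set lay clear of the 4 of the other. Newer peaks were narrower, with a median of 416 and 489 bp against 979 and 1041 bp. Among peaks of 800 to 1200 bp in the first list the shares were 72.6% and 77.6% against 13.6% and 19.5%, but among peaks of 300 to 500 bp they were 33.8% and 38.3% against 30.8% and 34.8%. At 500 to 800 bp they were 54.4% and 58.1% against 24.0% and 25.1%. In promoters the gap was thus in the peaks of 500 to 1200 bp and small in those of 300 to 500 bp. How much of it goes with the weaker −log10 p of the newer peaks (12.5 against 25.6 at 800 to 1200 bp) was not tested.

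Outside promoters the split by age was as clear. H3K4me3 peaks in both P7 lists (1093 and 1103) held H3R2me2a in 65.5% to 67.5%, and those in no P7 list (3856 and 3824) in 14.3% to 15.4%. The latter are the larger set, lie in introns for 51.7% in the first list and hold a median of 1 CpG per 100 bp. Outside promoters the gap also stood among narrow peaks. At 300 to 500 bp in the first list the shares were 69.4% and 71.3% against 18.5% and 19.6%. At 800 to 1200 bp they were 68.4% and 68.4% against 9.69% and 10.3%. By gene, 74.5% of 13022 protein-coding genes with H3K4me3 at both ages carried H3R2me2a at P14, against 44.7% of the 443 with H3K4me3 in no P7 list.

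H3R2me2a peaks found in both of their lists divided into 2 kinds. Of 21374 in the first list, 10338 (48.4%) overlapped H3K4me3 in both lists and 9297 (43.5%) in none. The first kind had a median width of 475.5 bp, 7.67 CpG per 100 bp, H3K27ac in both lists at 67.1% and H3K4me3 in both P7 lists at 88.1%. The second kind had a width of 335 bp, 1.33 CpG per 100 bp, H3K27ac at 6.52% and P7 H3K4me3 at 0.635%, and 6772 of its peaks lay outside promoters. Among these peaks H3R2me2a without H3K4me3 was thus mostly distal and seldom had H3K27ac in both lists. H3K27ac was in no list at 69.0% of the second kind, against 15.5% of the first, so some of the rest had it in 1 list.

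The X chromosome had a lower share than any autosome. H3R2me2a had 0.778% and 0.962% of its peaks on X and H3K4me3 3.403% and 3.398%. H3K4me3 peaks on X held H3R2me2a in 18.8% to 28.7% of cases over the 4 pairs, a mean of 23.9% ± 4.74, while the means of the autosomes ran from 49.1% (chromosome 15) to 55.9% (chromosome 3). The overlap of H3K4me3 with H3K27ac on X, 50.9% ± 1.69, lay within the 42.7% to 52.5% of the autosomes. In promoters alone the H3R2me2a share was 27.3% ± 5.49 on X and 61.7% ± 1.97 on autosomes, a difference of -34.4 ± 3.53 percentage points over the 4 pairs, and that with H3K27ac was 59.9% ± 1.28 and 60.8% ± 2.81.

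The difference stood among peaks of like strength. For promoter peaks with a −log10 p of 20 to 30 the H3R2me2a share was 38.5% ± 6.05 on X (150 to 157 peaks a list) and 69.7% ± 4.005 on autosomes, while H3K27ac stood at 89.6% ± 3.09 and 81.4% ± 7.17. These X peaks were poorer in CpG, with a median of 7.33 and 7.67 per 100 bp in the 2 H3K4me3 lists against 8.67 and 8.33 on autosomes (5.67 and 5.33 against 7.67 over promoter peaks of any strength), and the part of this was not tested. H4R3me2a, H3R8me2a and H4R3me1 were lower on X as well, with 14.4% ± 2.50 against 45.6% ± 3.91 for H4R3me2a, 12.4% ± 3.33 against 43.9% ± 1.15 for H3R8me2a and 5.83% ± 1.39 against 39.2% ± 1.22 for H4R3me1. A lower share on X was thus seen for the 4 arginine marks compared (H4R3me2s was not used here), and at P7 the same shares for H3R2me2a were 4.05% ± 1.18 and 17.5% ± 0.916. By gene, 127 of 504 X-linked protein-coding genes with H3K4me3 carried H3R2me2a (25.2%), against 74.95% of 13323 autosomal ones. Male cells carry a single X, and the part of that in these shares was not tested.

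**Figure D5:**
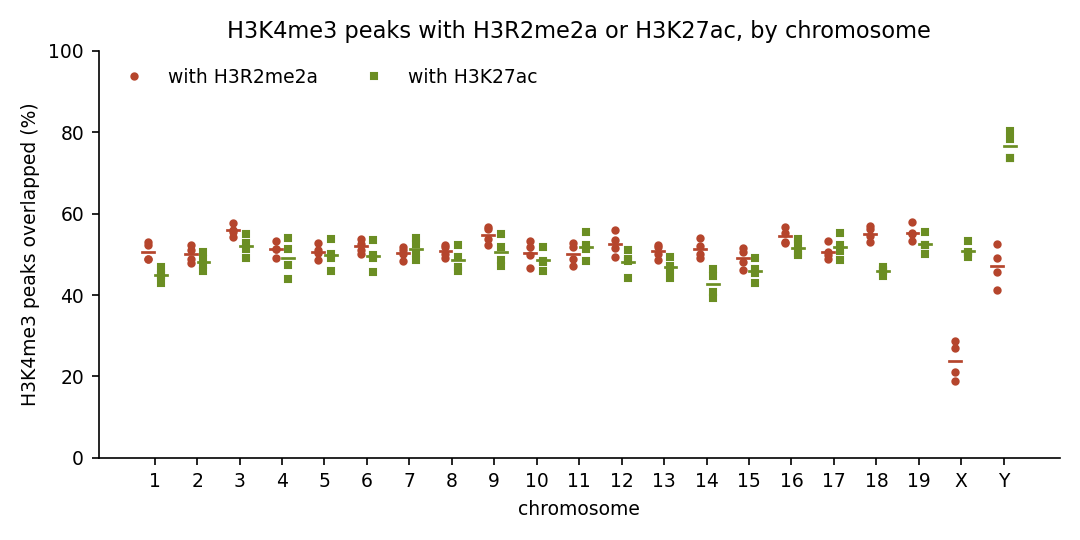
Share of H3K4me3 peaks (%) with H3R2me2a or H3K27ac on each chromosome, where points are the 4 pairs of lists and lines their means. The H3R2me2a means of the autosomes lie between 49.1% and 55.9% and that of X at 23.9%, while X is at 50.9% for H3K27ac and Y rests on 51 and 57 H3K4me3 peaks.

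On autosomes the share of H3K4me3 genes with H3R2me2a in both lists rose with CpG content from 59.7% at 2 to 4 CpG per 100 bp to 83.0% at 8 or more, but stood at 67.2% below 2. It varied less with RNA, from 66.2% below 1 TPM to 78.4% at 30 to 100 TPM and 74.6% from 100 TPM on, where H3K27ac went from 30.5% to 90.1% and 91.3%. In these bins H3R2me2a thus spanned a narrower range than H3K27ac over the level of P7 RNA.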

How the data were processed

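Peak lists came from CUT&Tag of WT testis cells at P14 with 2 lists for H3R2me2a and 2 for H3K4me3. The authors called peaks with MACS2 (2.1.0) in each library, on mm10 (GRCm38), and the submitters' processing notes also name fastp 0.23.2. The aligner of the CUT&Tag reads is not given in the sources used here, nor is a control library, and read depth is unknown. The deposited lists hold a fold enrichment ratio at the summit, −log10 p and −log10 q values and the summit offset, all as the peak caller wrote them. Deposited TPM values of P7 WT libraries (3 bulk, 2 Smart-seq2) were made by the authors with RSEM. The authors' own comparison columns were not used.

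Overlap was counted from 1 bp and distances from summit to summit. Genes and transcript starts were those of GENCODE mouse release 21, and a gene carried a mark when both lists had a summit within 3000 bp of a start. CpG was counted in 500 bp on either side of the most-used start and 150 bp on either side of a summit. The most-used (main) start is the one shared by most annotated transcripts. Printed promoters came from a RefSeq promoter table (GRCm38.p6), which held 16539 of 21938 protein-coding genes by symbol (75.4%), and motifs were searched in the genome sequence of that build around the main start. Groups of lists were compared with an exact two-sided permutation test, whose p-values measure only the spread between lists. Means over pairs of lists are given with SD and without a test, since pairs share lists. The genes named by rank are, per class, the protein-coding genes with the strongest mean rank of −log10 p, and the others are members of gene lists or genes whose tracks the study displays. Promoters planned for printing that overlap an annotated exon were replaced. The comparison, the genes and the lists were chosen with earlier results of these data known. Alternatives were other overlap rules, q thresholds, list lengths, promoter windows and leaving out each list. The scripts were tested on simulated peaks. Analyses used Python 3.11.15, numpy 2.4.6, pandas 2.3.3 and matplotlib 3.10.9.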

Additional observations from a re-analysis of the deposited data

How the results depend on the processing

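Of 101 alternative values 0 reversed, and 32, not counting those of the promoter difference, moved beyond the spread between pairs or 1.5 times the count. The promoter difference kept its direction while its size changed, to -11.7 points at q 0.01 in all 4 lists, -19.5 with H3R2me2a at q 0.05 and -17.6 with lists of equal length. The share of H3R2me2a peaks with H3K4me3 was 25.6% when 50% of the peak had to be covered, 26.1% when its summit had to lie inside, 52.7% at q 0.01 in all 4 lists, 39.02% with H3R2me2a at q 0.05 and 43.02% with lists of equal length, and the share of H3K4me3 peaks with H3R2me2a was 27.9%, 41.4%, 33.6%, 43.2% and 40.2%. Under the last 3 settings the summit distances were 693, 6091 and 4313 bp from H3R2me2a and 11549, 2130 and 4702 bp from H3K4me3. Genes with both marks numbered 7573 at q 0.01 in all lists. Genes with H3R2me2a only numbered 281, 882 and 631 under those settings, 977 and 695 with windows of 1000 and 500 bp, 6399 when 1 list was enough and 736 among protein-coding genes. Genes with H3K4me3 only numbered 5732, 3473 and 4157, and 1291 among protein-coding genes. Leaving out a list gave 26.9% to 29.8% and 49.2% to 52.2% for the shares, 13110 to 14771 genes with both marks, 2275 to 4588 with H3R2me2a only and 2330 to 4038 with H3K4me3 only, and -37.4 to -31.4 points for X against autosomes.

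With a replicate block of same-numbered lists the shares were 28.4% and 50.7%, the distances 10420.5 and 566.5 bp and the promoter difference -26.4 points (exact sign-flip p = 0.5, the smallest that 2 pairs allow). The numbers gave no sign of pairing, since the differences between replicates had r = -0.019 between the marks across 12827 genes, which are not independent. The peak thresholds differ between the marks and the depth behind the lists is unknown, so counts of single-mark genes are limited by what each list holds, and the cause of the moves was not tested.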
